A study of Homo sapiens with 16 samples.

Results

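The interleukins and growth factors described here are 10 genes whose secreted products have been linked to Hodgkin lymphoma: IL10, IL6, IL13, IL5, IL15, IL16, EBI3, CSF2, LIF and TGFB1. Their probe sets were taken from the platform annotation wherever the only gene symbol given was one of these 10. At gene level 9 of the 10 genes had such a probe set, of 18417 genes in all, and CSF2 had none. At exon level all 10 had probe sets, 109 of 224320 with a single symbol. The genes were measured in L1236, an established Hodgkin lymphoma cell line, infected with a retrovirus that carries a doxycycline-inducible short hairpin RNA (shRNA) against RELB, the DNA-binding partner in the alternative NF-kB pathway. The question of the series was how expression differs once RELB is depleted. All 8 arrays hold infected cells: in 4 the hairpin was left uninduced, and in 4 doxycycline was given to switch it on. No uninfected cells, no control hairpin and no doxycycline-treated cells without the hairpin were analysed here, so infection is shared by both groups, and doxycycline itself cannot be told apart from the hairpin. The titles cross the label with a B code (B_1 or B_4) and a last number (1 or 4) whose meanings are not stated. Replicates 1 to 4 are B_1 with last number 1, B_1 with 4, B_4 with 1 and B_4 with 4, in that order, and values below are given in it. The gene-level and exon-level samples are 2 summaries of the same 8 arrays, since all 4428 features in both tables held identical values, and they were counted once. Whether the arrays of a label stem from separate cultures is not stated, and a p-value here reflects array-to-array spread alone, possibly technical. Values are log2 signals after RMA, and 8 arrays limit the precision.

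Reed-Sternberg cells, the malignant B cells of Hodgkin lymphoma, are rare in the tumour and live among T cells, eosinophils, macrophages and fibroblasts that their secreted factors attract and feed. Interleukins 5, 13 and GM-CSF (the product of CSF2) belong to the type 2 helper programme, and their genes lie in a single cluster. Interleukin 6 and LIF signal through the shared receptor chain gp130, interleukin 10 through a receptor that activates STAT3, and interleukin 15 through chains shared with the interleukin 2 receptor. EBI3 is a soluble receptor-like chain that pairs with partner chains to make interleukins 27 and 35, interleukin 16 binds CD4, and TGF-beta is secreted in a latent form held by binding proteins.

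RefSeq promoter windows were given for 7 of the 10 genes and none for IL5, IL15 or LIF. The stretches of 250 bases before the start (GRCh38.p14) are shown for the genes with the largest falls and rises, IL6, CSF2, IL10 and EBI3, because these 4 carry the results that follow. They lie at chr7:22726950-22727199 (IL6, plus strand), chr5:132073539-132073788 (CSF2, plus strand), chr1:206772495-206772744 (IL10, minus strand) and chr19:4229273-4229522 (EBI3, plus strand). Letters are in lower case and matches to a motif in capitals.
IL6: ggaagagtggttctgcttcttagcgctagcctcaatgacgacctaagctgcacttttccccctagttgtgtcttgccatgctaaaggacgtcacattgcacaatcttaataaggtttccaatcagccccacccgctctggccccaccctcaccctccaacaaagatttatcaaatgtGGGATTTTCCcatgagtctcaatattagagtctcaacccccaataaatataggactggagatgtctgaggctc
CSF2: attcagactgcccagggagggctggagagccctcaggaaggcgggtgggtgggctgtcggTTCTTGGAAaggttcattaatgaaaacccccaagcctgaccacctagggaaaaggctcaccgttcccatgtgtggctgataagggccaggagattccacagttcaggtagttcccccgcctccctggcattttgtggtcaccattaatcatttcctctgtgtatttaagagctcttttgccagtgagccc
IL10: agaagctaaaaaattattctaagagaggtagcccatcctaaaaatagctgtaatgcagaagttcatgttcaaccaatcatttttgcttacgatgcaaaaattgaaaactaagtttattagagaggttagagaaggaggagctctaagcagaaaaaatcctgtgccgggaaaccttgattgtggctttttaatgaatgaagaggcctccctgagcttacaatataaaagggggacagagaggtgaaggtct
EBI3: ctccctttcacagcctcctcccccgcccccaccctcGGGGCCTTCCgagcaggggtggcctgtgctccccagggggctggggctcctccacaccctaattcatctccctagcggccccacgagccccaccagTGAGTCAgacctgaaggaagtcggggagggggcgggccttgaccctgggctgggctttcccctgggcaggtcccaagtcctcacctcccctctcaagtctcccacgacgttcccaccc

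Each window was searched on both strands for the NF-kB motif, given by name. The search for AP-1, the Fos and Jun family, used TGANTCA. The one for STAT proteins used TTCNNNGAA, and the one for GATA factors, which bind type 2 cytokine genes, used AGATAA. Counted from the start, the IL6 stretch held an NF-kB match, GGGATTTTCC, at -73 to -64. The EBI3 stretch held an NF-kB match, GGGGCCTTCC, at -214 to -205 and an AP-1 match, TGAGTCA, at -118 to -112. The CSF2 stretch held a STAT match, TTCTTGGAA, at -190 to -182. The IL10 stretch held none of the 4, while of the other 2 IL10 windows given, 1 held an AP-1 match, TGAGTCA, at -69 to -63 of its own start, and 1 held none. Among the genes whose stretches are not shown, the TGFB1 window held an NF-kB match, GGGACCCCCC, at -154 to -145. The IL13 window at the gene start held one, GGGGCGCCCC, after the start, at 8 to 17. The other IL13 window and the IL16 windows held none of the 4 motifs. Of 35116 promoter windows of 300 bases, 11.3% held the NF-kB motif, 7.71% AP-1, 7.66% STAT and 10.3% GATA. A match is a description of letters and not of a bound site.

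RELB itself, against which the hairpin was designed, showed no detectable fall, which bears on every direction given below. Its log2 signal was 7.40 ± 0.13 in uninduced and 7.25 ± 0.11 in induced arrays (SD, n = 4 each), a difference of -0.15 ± 0.09 (SE). The two-sided exact permutation p was 0.171 (with 4 arrays a label it cannot go under 0.0286), and the adjusted p from limma was 0.212. The groups are therefore called arrays labelled uninduced and arrays labelled induced. The 2 groups stood far apart, with correlations of 0.9908 or higher within a label and 0.9094 or lower between labels. Of 14 Hodgkin cell markers, 13 were above background on all 8 arrays, and by limma 5 were higher and 7 lower in arrays labelled induced. Over all tested genes 55.5% were called. The higher markers included TNFRSF8 (the CD30 antigen), at 6.89 ± 0.21 in arrays labelled uninduced against 11.59 ± 0.10. The lower ones included ID2, at 9.41 ± 0.20 against background, 4.19 ± 0.31, and CD80, at 10.16 ± 0.37 against 5.79 ± 0.34. CD86, CD40, CCL22, FSCN1 and FUT4 were lower as well. The mean signal of the B-cell markers ran from 6.35 to 6.52 in arrays labelled uninduced and from 7.76 to 8.10 in arrays labelled induced, with 4 of 7 tested higher, CD79A (5.31), CD22 (4.11), PAX5 (2.76) and POU2AF1 (0.86), 2 lower, BLK (-0.79) and SPIB (-0.31), and MS4A1 (CD20) at background throughout. The mean signal of the 11 T-cell markers ran from 4.68 to 4.79 and from 4.71 to 4.91. Of them 8 were at background on all 8 arrays, CD3D, CD3E and CD3G included, and 2 were above it on all 8, CD6 included. Of 5 tested, 0 passed (0.0644 was their median log2 difference). The mean of the 11 myeloid markers ran from 4.49 to 4.74 and from 4.63 to 4.81. Of them 7 were at background on all 8 arrays and 1 was above it on all 8. CD14 and LYZ were at background, and of 6 tested, 1 was higher (CD68) and 1 lower (ITGAM). The mean of the 9 fibroblast markers ran from 5.18 to 5.28 and from 4.71 to 4.81. Of them 4 were at background on all 8 arrays, and COL1A1, COL1A2 and COL3A1 were above it on all 8. Of 43 tissue-restricted genes, 11 were above it on all 8 as well, so this does not by itself show expression. Against the alternative background limits, taken from those tissue-restricted genes, COL1A2, COL3A1 and the T-cell marker CD6 lay lower on every array and COL1A1 higher. DCN and LUM lay at background. Over all genes with a value, 28.3% were at background on all 8 arrays. Of 6 tested fibroblast markers, 4 did not pass, PDGFRB was higher (0.59), and FAP was lower, at 8.56 ± 0.45 against background, 3.29 ± 0.12. The part of these marker shifts in the results below was not tested. In such bulk samples fewer cells of a type and less RNA per cell cannot be told apart.

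By label, IL10 and EBI3 were higher and IL6, CSF2 and IL13 lower in arrays labelled induced, TGFB1 was slightly higher, IL16 did not pass the test, and IL5, IL15 and LIF lay at background. A value was called at background when it was at or under the 95th percentile of the olfactory receptor probe sets of the same array, which lay between 5.24 and 5.38 at gene level and between 5.64 and 5.74 at exon level. Of the 9 genes with a gene-level value, 3 were at background on all 8 arrays, where 28.3% of all genes were. Testing was limited to genes whose mean reached the 25th percentile, 4.77, which left 6 of the 9, and these passed that filter partly through the group in which they were high. Limma called 5 of the 6, with 3 higher and 2 lower, where 55.5% of all 13813 tested genes were called (27.1% higher and 28.3% lower). With so many genes called, this count is near the background. The median log2 difference of the 6 was 0.25 and that of all tested genes 0.02. A called difference of 1 log2 unit or more in size, which 16.5% of tested genes had, was found for IL10, IL6 and EBI3. The labels did not overlap for IL10, IL6, IL13, EBI3 and TGFB1, and 49.8% of tested genes showed the same. Median centring of the arrays moved the median of all genes to 0.17 and the share of calls that were higher from 48.9% to 65.2%, and quantile normalisation moved them to 0.10 and 55.8%. The medians centred on were not those of all gene-level probe sets. Those differed little, from 5.82 to 5.88 in arrays labelled uninduced and from 5.79 to 5.87 in arrays labelled induced. Under each of these scalings the directions of the 5 called genes held, and IL16 was called as well. Signals of different probe sets are not set against each other below, since probes differ in brightness.

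**Figure D1:**
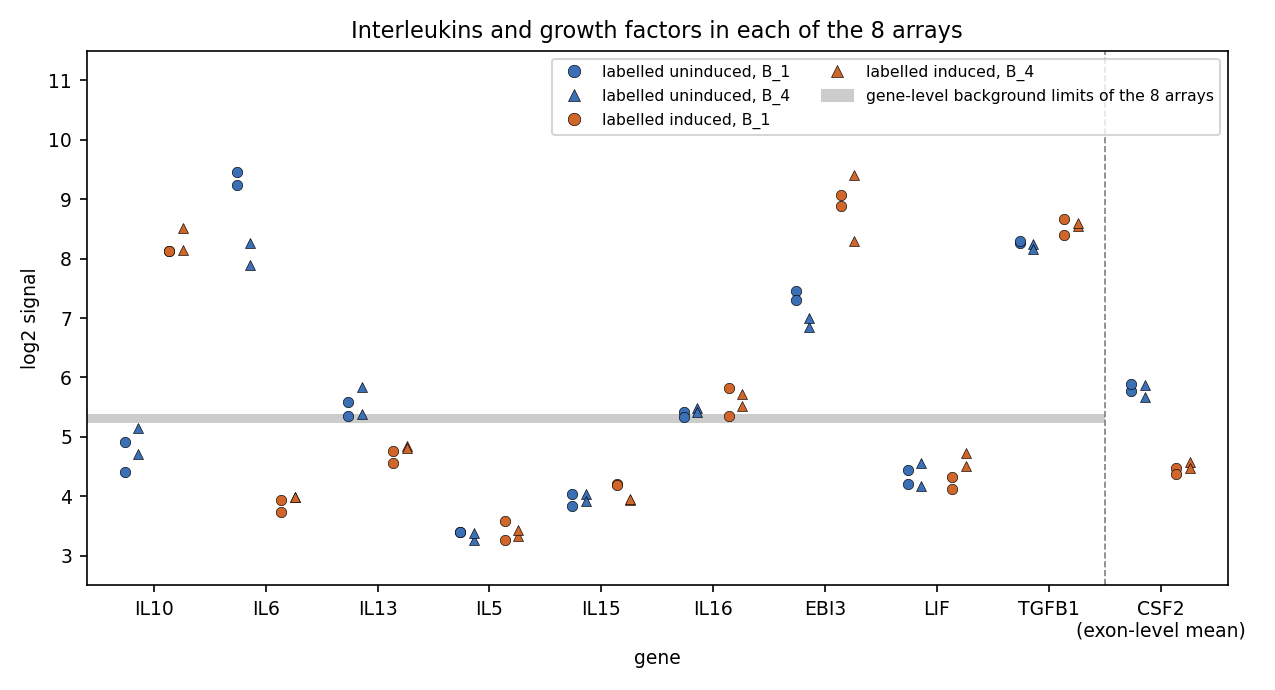
Log2 signal (vertical axis) of each gene in each of the 8 arrays, with gene-level probe sets left of the dashed line and the mean of the exon-level probe sets for CSF2 right of it; colour gives the label, circles are B_1 and triangles B_4. The grey band spans the gene-level background limits of the arrays, 5.24 to 5.38: IL10 lies under it only in arrays labelled uninduced, IL6 and IL13 only in arrays labelled induced, and IL5, IL15 and LIF lie under it on all 8.

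**Figure D2:**
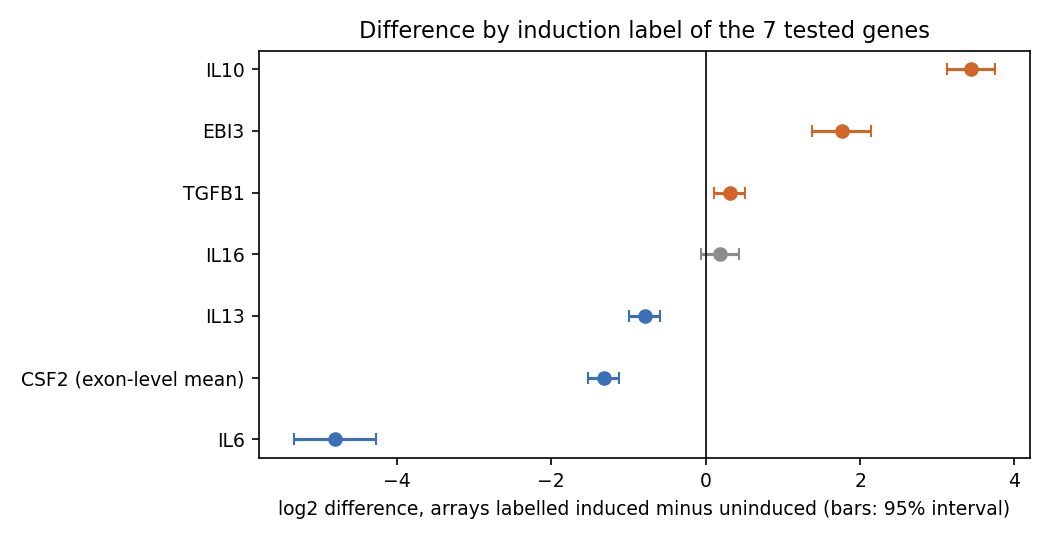
Log2 difference, arrays labelled induced minus arrays labelled uninduced (horizontal axis), of the 7 genes with a test, with 95% intervals from limma (n = 4 arrays per label). IL10 (3.44) and EBI3 (1.76) are farthest to the right, IL6 (-4.80) is farthest to the left, and only the interval of IL16 (grey) crosses 0.

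IL10, which restrains macrophages and T cells and can also act on B cells, showed the largest rise of the 10 genes. Its gene-level log2 signal was 4.41, 4.91, 5.15 and 4.70 in the 4 arrays labelled uninduced and 8.13, 8.13, 8.15 and 8.52 in those labelled induced. All 4 uninduced values were at background and all 4 induced values well above it, with no overlap. The difference was 3.44 ± 0.14 (SE, adjusted p = 5.61e-09), and since this probe set was at background in the low group, its signal was at least 7.85-fold higher in arrays labelled induced than the background limit of the others. At exon level IL10 was higher in 8 of 8 tested probe sets, and the labels did not overlap in any of its 9. The differences ran from 1.17 in probe set 6, which was at background throughout and not tested, to 5.30 in probe set 3. Probe sets 1 and 2 were each above background on 2 of the 4 arrays labelled uninduced, and the other 7 were at background on all 4. Probe set 3 rose from 3.58, 4.01, 3.62 and 3.68 to 8.52, 9.39, 9.03 and 9.16. Over all exon-level probe sets 35.4% were called, 17.9% higher and 17.5% lower.

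EBI3, the chain shared by interleukins 27 and 35, was above background on every array and higher in arrays labelled induced. Its signal was 7.46, 7.30, 6.86 and 7.0045 in arrays labelled uninduced and 8.89, 9.07, 8.30 and 9.41 in arrays labelled induced. The groups did not overlap, and the B_4 array with last number 1 was the lowest of each label. EBI3 was 3.39-fold higher, a log2 difference of 1.76 ± 0.17 (SE, adjusted p = 7.32e-06). All 5 of its exon-level probe sets were called higher, from 0.82 in probe set 1 to 2.31 in probe set 3. The call of probe set 1 was lost without uninduced replicate 1, 3 or 4 or induced replicate 1 or 4, at adjusted p from 0.0514 to 0.0722.

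Of the partner chains and relatives of EBI3, none was called higher. Of 4 measured relatives, 0 were called higher and 1 lower, where 27.1% of all tested genes were higher and 28.3% lower. So few genes do not set the relatives apart from those shares. The lower one was IL23A (the p19 chain of interleukin 23), at 6.30 ± 0.03 against 5.90 ± 0.09 (difference -0.41 ± 0.08, adjusted p = 0.00146). IL27, the partner in interleukin 27, was at 6.09 ± 0.10 and 6.14 ± 0.05, and IL12A, the partner in interleukin 35, at 5.63 ± 0.29 and 5.52 ± 0.20. IL12B was at background on all 8 arrays, and IL12A on 1 array labelled induced (5.27). Against the alternative background limits, taken from tissue-restricted genes, IL12A lay lower on every array. IL27 lay above those limits on some arrays and below them on others. The 3 that did not pass had adjusted p from 0.376 to 0.988.

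TGFB1, which encodes the TGF-beta 1 precursor, was well above background everywhere and differed little. Its signal was 8.26, 8.30, 8.25 and 8.16 in arrays labelled uninduced and 8.67, 8.40, 8.55 and 8.60 in arrays labelled induced. The ranges did not overlap, the gap between them being small. The difference was 0.31 ± 0.09 (SE, adjusted p = 0.0114), or 1.24-fold. Of its 11 tested exon-level probe sets, 2 were called higher (numbers 6 and 10, at 0.49 and 0.47) and 9 did not pass. The call of probe set 6 was lost without any array but uninduced replicate 2, and that of probe set 10 without any array but induced replicate 3, at adjusted p from 0.0588 to 0.149.

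Of 9 tested genes that store and activate TGF-beta, 2 were higher and 4 lower, with a median of 0.01, a share near the 55.5% of all tested genes that were called. Lower were LRRC32 (a surface anchor of latent TGF-beta), at 7.95 ± 0.31 against 6.33 ± 0.43, LTBP1 and LTBP4, which bind the latent complex in the matrix (LTBP1 at least 1.80-fold, being at background in arrays labelled induced, and LTBP4 by a difference of -1.12 ± 0.09), and ITGAV, an integrin chain that activates it (-0.72 ± 0.09). Higher were NRROS, another anchor (0.66 ± 0.10), and FURIN, the protease that cuts the precursor (0.42 ± 0.09). Among 12 tested genes of TGF-beta signalling and response, 2 were higher and 5 lower. SMAD3, a receptor-activated transducer, was at 5.41 ± 0.05 against 7.46 ± 0.61, and the inhibitory SMAD7 rose by 0.73 ± 0.14. ID2, an inhibitor of E-protein transcription factors, was at 9.41 ± 0.20 against 4.19 ± 0.31, BAMBI, a decoy receptor, at 7.66 ± 0.34 against 4.66 ± 0.12, and both were at background in arrays labelled induced. SMAD2 and SKIL were the other 2 lower genes beside LTBP1, at -0.70 and -0.61.

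IL6, a growth factor for plasma cells and a driver of the acute phase response, showed the largest fall of the 10 genes. Its signal was 9.46, 9.24, 8.26 and 7.89 in arrays labelled uninduced and 3.93, 3.74, 3.99 and 3.99 in arrays labelled induced. In this gene-level probe set all 4 arrays labelled induced were at background and no uninduced array was. The difference was -4.80 ± 0.24 (SE, adjusted p = 3.22e-08), and the signal was at least 10.3-fold lower in arrays labelled induced. At exon level 7 of 8 tested probe sets were lower and 1 did not pass, with all 9 differences negative, from -1.23 to -6.70. Probe set 4 stood at 11.30, 11.58, 10.16 and 9.93 against 3.62, 4.17, 4.32 and 4.03. Probe set 3 stayed above background on every array, at 11.60, 11.47, 10.28 and 10.16 against 5.77, 5.84, 5.83 and 6.12, a measured difference of 31.8-fold. Probe set 2, the one that did not pass, stood at 5.78, 6.57, 5.52 and 6.56 against 4.68, 3.83, 4.98 and 6.02, with overlap and the last of these above background. Probe sets 8 and 9 carry identifiers apart from the other 7, and they fell by 1.84 and 3.50, the second without a test.

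Within arrays labelled uninduced, IL6 also separated the B codes. The B_1 arrays averaged 9.35 and the B_4 arrays 8.08, each of 2 arrays, a difference of -1.27 ± 0.12 (SE, adjusted p = 0.00268), where 2.84% of tested genes were called. Within arrays labelled induced, where the gene-level probe set was at background, the B codes differed by 0.16 ± 0.12 (adjusted p = 0.757), with 0.0652% of tested genes called. The difference by label was -5.51 in B_1 and -4.08 in B_4. The interaction of label and B code was 1.43 ± 0.17 (adjusted p = 0.0158), and it was called for 0.297% of tested genes (11.9% at an unadjusted p under 0.05). It rested on few arrays: without uninduced replicate 1, 2 or 4 the adjusted p was 0.213, 0.139 or 0.0596, at interactions of 1.42, 1.45 and 1.32. Among exon-level probe sets, all 9 of IL6 averaged lower in the uninduced B_4 arrays than in the B_1 arrays, by 0.13 to 1.49, and in 8 of 9 both B_4 values lay under both B_1 values. The interaction was called by limma for 0 of 8 tested probe sets of IL6 and for 0% of all 168240, with 5 of the 8 at an unadjusted p under 0.05, and averaging the exon-level probe sets of IL6 gave a called interaction of 1.30 (adjusted p = 0.0448). The other tested genes had interactions from -0.07 (IL10) to 0.32 (EBI3), and none passed (adjusted p from 0.757 for CSF2 to 0.963 for IL16).

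**Figure D3:**
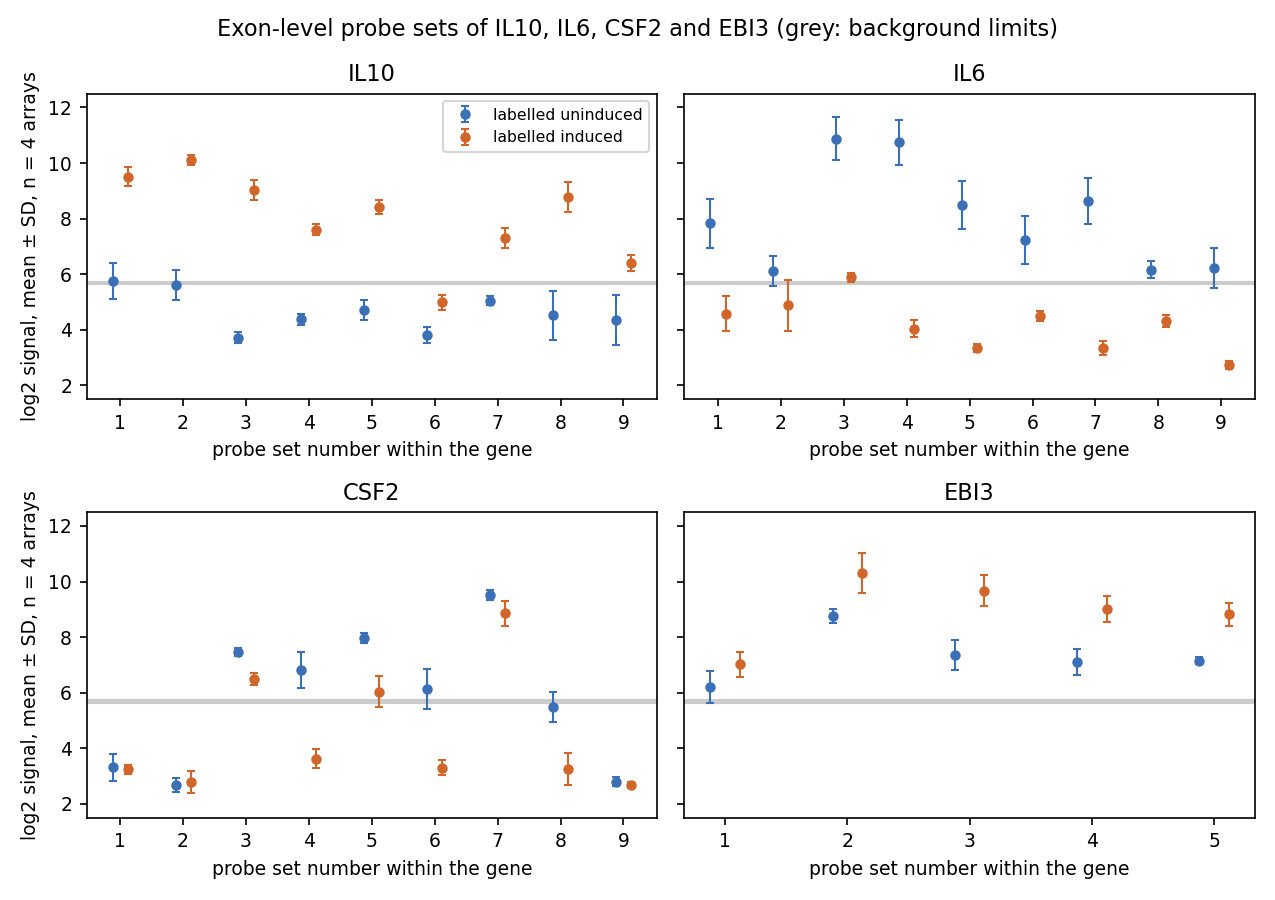
Log2 signal (mean ± SD, n = 4 arrays per label) of each exon-level probe set of IL10, IL6, CSF2 and EBI3, numbered in the order of their identifiers; the grey band spans the exon-level background limits, 5.64 to 5.74. The probe sets of IL10 and EBI3 are higher and those of IL6 lower in arrays labelled induced. For CSF2, 8 of 9 differences are negative, with 3 probe sets called lower and 0 higher, and probe sets 1, 2 and 9 are at background in both labels.

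CSF2, which encodes GM-CSF, a growth factor for granulocytes and macrophages, was measured at exon level only. The mean of its 9 probe sets was 5.77, 5.89, 5.67 and 5.87 in arrays labelled uninduced and 4.47, 4.38, 4.58 and 4.48 in arrays labelled induced. The ranges did not overlap, and the difference was -1.32 ± 0.09 (SE, adjusted p = 3.05e-07) in a fit where 56.4% of genes were called. Probe sets 1, 2 and 9 were at background on all 8 arrays and numbers 4, 6 and 8 on all 4 labelled induced, and all enter this mean, so it gives no fold change. Of 4 tested probe sets, 3 were lower. Probe set 4 stood at 7.23, 7.33, 6.83 and 5.92 against 4.12, 3.37, 3.58 and 3.44, at least 2.17-fold lower, and probe set 5 at 8.07, 7.84, 7.79 and 8.19 against 5.25, 6.12, 6.42 and 6.38. Probe set 7 stood at 9.30, 9.56, 9.45 and 9.73 against 8.79, 9.16, 9.24 and 8.23, and did not pass (-0.65 ± 0.26, adjusted p = 0.0950) though the labels did not overlap.

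IL13, a type 2 cytokine that Reed-Sternberg cells are known to secrete and respond to, was lower in arrays labelled induced but close to background in both. Its signal was 5.58, 5.36, 5.83 and 5.39 in arrays labelled uninduced and 4.76, 4.56, 4.85 and 4.82 in arrays labelled induced. The 4 uninduced values lay just above the limits of their arrays and the 4 induced values below, with no overlap. The difference was -0.79 ± 0.09 (SE, adjusted p = 1.98e-05), of which at least 1.14-fold lay above background. Of 3 tested exon-level probe sets 2 were lower, number 4 at -0.99 and number 2 at -0.54. All 6 probe sets were at background on all 4 arrays labelled induced, and number 2 also on 2 of the 4 labelled uninduced. Numbers 3 and 5, under the filter and not tested, differed by -1.24 and -1.84 without overlap. In arrays labelled uninduced number 3 was at background on all 4 and number 5 on 3. The call of number 2 was lost without any array but uninduced replicate 4, at adjusted p from 0.0520 to 0.114. IL5, the eosinophil growth factor in the same cluster as IL13, lay between 3.26 and 3.40 in arrays labelled uninduced and between 3.26 and 3.58 in those labelled induced, and all 6 of its exon-level probe sets were at background on all 8 arrays.

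The neighbours of these genes gave no single direction. Of 14 listed neighbours of IL10 and of the IL13, IL5 and CSF2 cluster, 8 were at background on all 8 arrays, where 28.3% of all genes were. Among these 8 were IL3, IL4, IL19, IL20 and IL24. Of 7 tested, 3 were higher and 2 lower, where 55.5% of all tested genes were called (27.1% higher and 28.3% lower). Beside IL10, MAPKAPK2 (a stress kinase) was at 7.53 ± 0.12 against 8.90 ± 0.16. In the cluster, P4HA2 (a collagen prolyl hydroxylase) was at 8.83 ± 0.35 against background, 4.52 ± 0.16, and SLC22A5 (a carnitine transporter) was lower by a log2 difference of -1.53 ± 0.12. RAD50, between IL5 and IL13, was at 9.32 ± 0.11 against 9.15 ± 0.17 and did not pass (adjusted p = 0.143). IRF1 (0.29 ± 0.11, adjusted p = 0.0446) and PIGR (0.21 ± 0.08, adjusted p = 0.0491, at background on all 8 arrays) were called at the edge of the threshold, and the call of IRF1 was lost without uninduced replicate 1, 2 or 4 or induced replicate 2 or 4, at adjusted p from 0.0700 to 0.156.

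IL16, a chemoattractant that binds CD4, stood just above background and did not pass the test at gene level. Its signal was 5.42, 5.34, 5.49 and 5.42 in arrays labelled uninduced and 5.35, 5.82, 5.73 and 5.52 in arrays labelled induced, and the ranges overlapped. The difference was 0.19 ± 0.11 (SE, adjusted p = 0.174), with a 95% interval from -0.05 to 0.44. Without induced replicate 1 it was 0.30 and passed (adjusted p = 0.0370), and averaging its 33 exon-level probe sets gave 0.26, which passed too (adjusted p = 0.0235). Of its 22 tested exon-level probe sets, 2 were higher, 1 was lower and 19 did not pass. Probe set 28 stood at 5.01, 4.86, 4.61 and 5.44 against 6.81, 6.78, 7.06 and 6.53, at background in the first group and above it in the second (difference 1.81 ± 0.23). Probe set 2 stood at 9.31, 9.14, 9.63 and 9.79 against 9.17, 9.89, 9.68 and 9.65, with overlap. Probe set 21 (0.78) and probe set 6 (-0.65) were the other called ones. Number 21, at 4.81 ± 0.27 against 5.59 ± 0.31, was at background on all 4 arrays labelled uninduced and on 3 of the 4 labelled induced. Number 6, at 8.52 ± 0.27 against 7.87 ± 0.49, was above it on all 8. The call of number 21 was lost without uninduced replicate 1, 2 or 3 or induced replicate 1, 2 or 3, and that of number 6 without uninduced replicate 1, 2 or 3 or induced replicate 1, at adjusted p from 0.0565 to 0.0903.

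**Figure D4:**
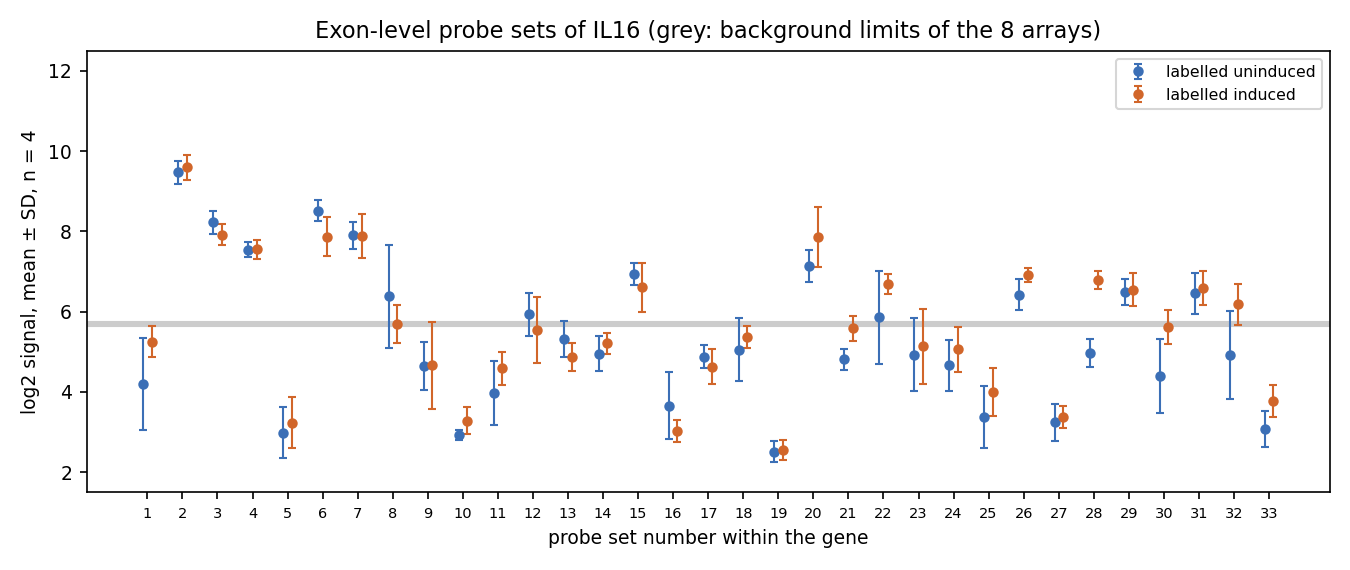
Log2 signal (mean ± SD, n = 4 arrays per label) of the 33 exon-level probe sets of IL16, numbered in the order of their identifiers, with the exon-level background limits in grey. Probe set 28 crosses the band between the labels (difference 1.81), while number 2 differs by 0.13.

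IL15, a growth and survival factor of T cells and natural killer cells, and LIF, a gp130 cytokine of the interleukin 6 family, were not measurable at gene level. IL15 lay between 3.84 and 4.04 in arrays labelled uninduced and between 3.94 and 4.20 in those labelled induced. LIF lay between 4.17 and 4.56 and between 4.12 and 4.73. In a fit with no filter their differences were 0.11 ± 0.09 (adjusted p = 0.375) and 0.08 ± 0.13 (adjusted p = 0.681), and that of IL5 was 0.04 ± 0.08 (adjusted p = 0.719). The exon-level average of IL15, also under the filter, was 3.97, 4.08, 4.01 and 4.07 against 4.53, 4.37, 4.23 and 4.28, with no overlap and a no-filter difference of 0.32 ± 0.09 (adjusted p = 0.0131). At exon level 9 of 14 probe sets of IL15 and 5 of 6 of LIF were at background on all 8 arrays. IL15 had 1 called probe set of 3 tested, number 8, at 5.28, 4.79, 4.87 and 4.76 against 6.67, 6.09, 6.06 and 5.18, with overlap and 3 of the induced values above background (difference 1.08 ± 0.19). The only tested probe set of LIF did not pass (0.32 ± 0.18).

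Counted over all 10 genes, 65 of 109 exon-level probe sets were tested, and 18 were higher, 13 lower and 34 not passed, where 35.4% of all tested probe sets were called (17.9% higher and 17.5% lower). On all 8 arrays 38 of the 109 were at background, where 24.5% of all exon-level probe sets were. Labels did not overlap in 38 of them, where 30.1% of all did. Unequal movement of the probe sets of a gene was called by diffSplice's F test for 6 of 8 genes with 3 or more tested probe sets, where 41% of such genes were called. IL13 and TGFB1 were not called (adjusted p = 0.714 and 0.208). The adjusted p was 1.05e-10 for IL6, 1.64e-06 for IL10, 1.02e-05 for CSF2, 0.00450 for IL16, 0.00523 for IL15 and 0.0376 for EBI3. The test pools the spread of a gene's probe sets and makes too many calls where that spread is unequal, so these are given as values and nothing is read from the last 3. The Simes version of the test called 6 of the 8 as well, where 42.9% of genes were called. Relative to the other probe sets of its gene, CSF2 probe set 4 was lower by a log2 difference of -2.02 and probe set 7 higher by 1.37. IL6 probe set 4 was lower by -3.20 and probe set 2 higher by 3.05. CSF2 probe set 4 and IL6 probe set 4 were at background in all arrays labelled induced, and the part of background in the unequal movement was not tested.

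B code and last number moved little else among the 10 genes. Limma called 0 of 13813 genes for B_4 against B_1 (0%; 1911 or 13.8% at an unadjusted p under 0.05) and 0 for last number 4 against 1 (0%; 970 or 7.02% unadjusted). Over both labels IL6 was lower in B_4 by a log2 difference of -0.56 ± 0.24 (unadjusted p = 0.0417 from limma, adjusted p = 0.348) and IL13 lower at last number 4 by -0.22 ± 0.09 (unadjusted p = 0.0299 from limma, adjusted p = 0.661). EBI3 averaged 7.38 in the uninduced B_1 arrays and 6.93 in the uninduced B_4 arrays, a difference of -0.45 ± 0.24 (adjusted p = 0.337). IL10, TGFB1, IL16 and CSF2 differed between B codes by 0.24, -0.02, 0.06 and 0.02, all with adjusted p of 0.451 or more. The interaction of label and last number was called for 0 genes (0%; 408 or 2.95% unadjusted), with EBI3 at 0.65 ± 0.30 the largest among the 7 tested (adjusted p = 0.999).

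The receptor chains through which these factors act changed in both directions. Of 21 chains, 17 were tested, and 5 were higher and 8 lower, with a median of -0.23, where 27.1% of all tested genes were higher and 28.3% lower. For IL10, the ligand-binding chain IL10RA was at 9.40 ± 0.31 in arrays labelled uninduced and at background, 4.68 ± 0.10, in arrays labelled induced, at least 16.6-fold lower. Its partner IL10RB was higher by 1.04 ± 0.08. For IL6, the binding chain IL6R was lower by a log2 difference of -0.54 ± 0.09 and the signalling chain IL6ST (gp130) was at 7.44 ± 0.34 against 9.48 ± 0.16. For IL13, IL13RA1 was at 10.20 ± 0.24 against background, 3.35 ± 0.04 (at least 28.8-fold lower), IL4R at 9.84 ± 0.11 against 6.62 ± 0.14, and the decoy IL13RA2 at background on all 8 arrays. For IL5 and GM-CSF, IL5RA was at 8.55 ± 0.44 against background, 3.71 ± 0.16 (at least 9.21-fold lower), the shared chain CSF2RB at 7.14 ± 0.19 against 5.55 ± 0.06, and CSF2RA at background throughout.

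For IL15, the shared chain IL2RB was at 6.72 ± 0.25 against 9.31 ± 0.14 and IL2RG at 10.16 ± 0.10 against 9.34 ± 0.23, both called. IL15RA, at 8.83 ± 0.31 against 8.60 ± 0.19, did not pass (adjusted p = 0.169), but was called lower without uninduced replicate 4 (-0.35, adjusted p = 0.0422) or induced replicate 4 (-0.38, adjusted p = 0.00861). For EBI3-containing cytokines, IL27RA was lower by a log2 difference of -1.07 ± 0.12 and IL12RB2 was at background. LIFR, under the filter on means, was at 3.29 ± 0.20 against 5.44 ± 0.66, with no overlap and 2 of the 4 induced values above background. CD4 and CD9, both listed as binding partners of IL16, were at background on all 8 arrays and did not pass; their small negative differences (-0.06 and -0.05) turned positive under median centring. For TGF-beta, TGFBR2 was at 4.998 ± 0.30 against 5.54 ± 0.20 and TGFBR3, a co-receptor, at 7.35 ± 0.14 against 8.19 ± 0.08, both called higher. The TGFBR2 mean in arrays labelled uninduced lay under the background limits of 5.24 to 5.38. TGFBR1 did not pass (-0.06 ± 0.17), and its sign turned under median centring and without induced replicate 2 or 3 (0.04 and 0.13).

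**Figure D5:**
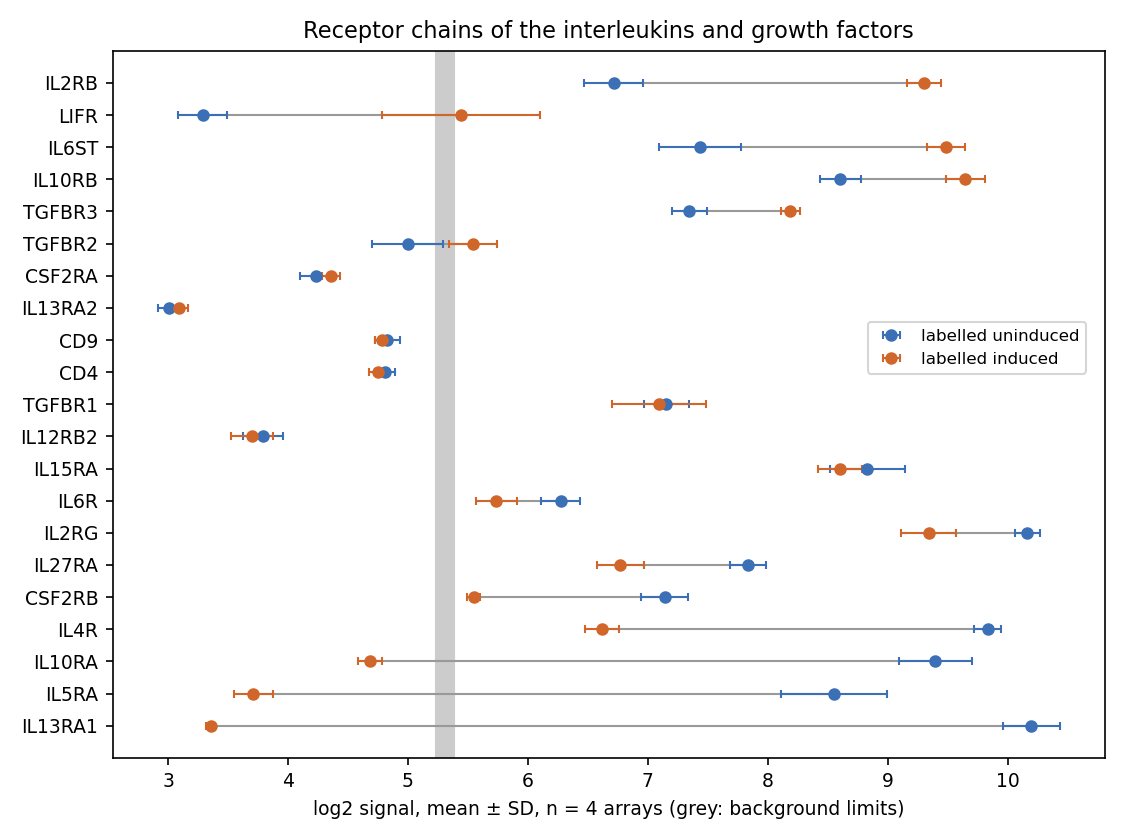
Log2 signal (horizontal axis, mean ± SD, n = 4 arrays per label) of the 21 receptor chains, ordered by the difference between the labels, with the gene-level background limits in grey. IL13RA1, IL5RA and IL10RA fall from above the band to below it in arrays labelled induced, and IL2RB, LIFR and IL6ST are the chains with the largest differences in the other direction.

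Genes that carry the signal of these receptors differed in both directions. Of 15 tested transducers and feedback genes, 6 were higher, 8 lower and 1, JAK3, did not pass, where 55.5% of all tested genes were called. The kinase JAK1 was at 9.55 ± 0.13 against 11.59 ± 0.25 and JAK2 at 9.41 ± 0.15 against 6.14 ± 0.14. STAT5A, activated downstream of IL5 and GM-CSF, was at 9.04 ± 0.46 against 5.15 ± 0.38, the second mean lying under the background limits of 5.24 to 5.38. The feedback inhibitor SOCS1 was at 8.07 ± 0.14 against 5.50 ± 0.19.

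Among transcription factors known to act on cytokine genes, 6 of 13 tested were higher, 6 lower and 1 did not pass, where 55.5% of all tested genes were called. GATA3, the regulator of the type 2 cytokine cluster, was at 9.999 ± 0.48 against background, 4.81 ± 0.18. BATF3, an AP-1 family member, was at 10.93 ± 0.10 against 6.62 ± 0.32, and NFIL3 was lower by a log2 difference of -1.18 ± 0.11. PRDM1, the plasma cell regulator, was at 7.28 ± 0.22 against 10.59 ± 0.25.

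Most other interleukins and growth factors gave no measurable signal. Of 50 with a value, 28 were at background on all 8 arrays, where 28.3% of all genes were. Of 24 tested, 3 were higher, 7 lower and 14 not passed, with a median of 0.01. Over all tested genes 55.5% were called, 27.1% higher and 28.3% lower. KITLG (stem cell factor) was at 8.28 ± 0.15 against background, 3.25 ± 0.07 (at least 7.61-fold lower), and CSF1 (macrophage colony-stimulating factor) at 7.98 ± 0.10 against 5.66 ± 0.10. PDGFA was lower by a log2 difference of -0.90 ± 0.10, and INHBA, at background in arrays labelled induced, was at least 1.63-fold lower. The 3 higher were VEGFB (0.51 ± 0.08), FGF2 (0.32 ± 0.10) and IL17A (0.35 ± 0.12).

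For the genes with a called difference of 1 or more, the tested genes with the most similar profile over the 8 arrays were found by the root mean square difference of centred log2 values. The nearest to IL10 were ARHGAP30 (0.195), ATP1B1 (0.195) and PIK3R5 (0.205), those to IL6 were IL5RA (0.218), PHF24 (0.250) and PSAT1 (0.253), and those to EBI3 were AUTS2 (0.209), HLA-DOA (0.217) and KLF12 (0.220). IL5RA, the receptor chain of IL5 named above, thus had the profile nearest to that of IL6, with 8.55 ± 0.44 against 3.71 ± 0.16. Both genes were at background in all 4 arrays labelled induced, so the nearness rests largely on falls of similar size. A link between IL5RA and IL6 was not tested.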

How the data were processed

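TRIZOL RNA from L1236 cells was labelled with the Affymetrix whole-transcript kit, per the labels' protocols, giving 8 arrays. The deposited values are log2 signals made by the authors with RMA and Partek, per the submitters' processing notes, without versions; the log base is not stated, and 2, the base RMA uses, fits values of 2.07 to 14.1 (genes) and 1.88 to 15.1 (exons). RMA equalises array distributions and compresses dim signals. Column medians were 5.79 to 5.88 and 6.51 to 6.59. The build and any filters were not given in the sources used here; scan dates were not analysed here.

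A single symbol was given for 19460 of 33297 probe sets at gene level (several for 1754, none for 12083) and 224320 of 257430 at exon level (10159 and 22951). Probe sets with several symbols were not used, and symbols were updated through RefSeq (GRCh38.p14). The brightest probe set stood for a gene.

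Limma 3.58.1 (R 4.3.3, with data.table, version 1.17.8) fitted label, B code and last number, with Benjamini-Hochberg adjustment over all tested features and a threshold of 0.05; every adjusted p is limma's, diffSplice included. RELB also had an exact permutation test. A bound sets the higher group against the background limit of the arrays in the lower group. Same-numbered arrays were not paired: their deviations correlated at 0.16, -0.02, 0.11 and 0.02. The fits were tested on simulated data, where the exon-usage test made more false calls than its threshold allows. Figures and motif searches used Python 3.11.15, matplotlib 3.10.9 and pandas 2.3.3.

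Named were the 10 genes, RELB, the receptor chains, the 4 lowest p among called genes of each list and the 3 nearest profiles. Other genes, and single probe sets, were named after their values were seen. The 10 genes and the lists were chosen with earlier results of these data known. Alternatives were the filter, scaling, covariates, a replicate block, the variance model, the rule for several probe sets, exon-level means, a threshold of 0.1, the background reference and each array left out.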

Additional observations from a re-analysis of the deposited data

Results flagged for a closer look

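Among the 20 groups of 4 arrays checked for a value far from the others, IL10 in arrays labelled induced stood out: its gap to the nearest value was 0.952 of the group's range, above Dixon's critical value for 4. The values were 8.13, 8.13, 8.15 and 8.52, the highest being replicate 4 (B_4, last number 4). Chance takes about 1 group in 20 past that critical value. The difference by label ran from 3.31 to 3.59 with each array left out in turn or other settings.

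The difference of IL6 by label was not the same in the B codes: the interaction was 1.43 (limma, adjusted p = 0.0158), from -5.51 in B_1 to -4.08 in B_4. Of the 4 arrays labelled uninduced, the B_1 values were 9.46 and 9.24 and the B_4 values 8.26 and 7.89, while this gene-level probe set was at background in all arrays labelled induced. No explanation for this difference was tested.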

How the results depend on the processing

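Of 101 results, 86 kept their direction and their side of the threshold (counts within 1.5 times) under every alternative run; over all 1516 alternative values, 1444 did, 57 lost a call, 6 gained one, 7 changed sign and 2 moved. IL16 was called under quantile normalisation (0.30), median centring (0.34) and as an exon-level mean (0.26), and ran from 0.0762 to 0.30 with 1 array left out. RELB turned positive under median centring (0.002453). CD4 (0.0888) and TGFBR1 (0.0878) turned under median centring, CD9 under quantile normalisation (0.007289) and median centring (0.10), and TGFBR1 without induced replicate 2 (0.04) or 3 (0.13), from a range of -0.28 to 0.13 with 1 array left out. Genes at background were 5 under the 99th percentile of olfactory receptors and 5 under the tissue-restricted list, adding IL13 and IL16. The IL6 interaction, most of its alternatives chosen after seeing the data, ran from 1.30 to 1.56 with 1 array left out. With the pair as a replicate block, an unpaired number, 5 genes were still called (7343 of all genes); the exon-level calls of IL13 probe set 2 and TGFB1 probe sets 6 and 10 were lost (adjusted p = 0.0601, 0.0716 and 0.0704), as was that of IRF1 (0.0536). The array number limits every value, and signals near background have bounds only.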
